A study of Mus musculus with 8 samples.

Results

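H3K56ac peaks of mouse muscle stem cells (MuSCs) that lie at the 3′ ends of protein-coding genes were described, and the genes that carry them were tested for a peak at their 5′ end. A member was an autosomal peak of the deposited merged peak list that shared at least 1 bp with the 3′ UTR of a protein-coding transcript or with the 3 kb beyond the end of a protein-coding gene, and that lay more than 3 kb from every annotated transcription start site (TSS) of any gene type. Of 103492 autosomal peaks (105600 in all), 7681 touched such a 3′ end zone, 4628 of them lay within 3 kb of a TSS and were left out, and 3053 remained, which is 2.95% of the autosomal peaks. Their 2318 host genes are the protein-coding genes whose zone a member touched.

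The labels describe 8 ChIP-seq libraries from freshly isolated MuSCs of C57BL/6 mice, with 2 H3K56ac libraries and 2 input libraries (chromatin sequenced without immunoprecipitation) for each of the genotypes Control and Sirt6mKO. Control mice are wild type, and in Sirt6mKO mice (Pax7-ICNCre, Sirt6 fl/fl) a constitutive Cre recombinase driven by the Pax7 promoter removed floxed Sirt6 exons, so that the loss is in the muscle lineage, myofibers included, and not in MuSCs alone. Cells were depleted of Sca1, CD45 and CD31 positive cells and sorted for Integrin-a7 and CD34. The age of the mice and the number of animals in a library are not given in the labels. The paper's legend for the figure with these data names male mice and gives an age range. The peak list is 1 merged table with no value per library, and which libraries or genotypes entered it is not given. No peak below can therefore be assigned to Control or Sirt6mKO, and presence in the list is the only measurement.

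H3K56ac is the acetylation of a lysine in the core of histone H3, close to where DNA enters the nucleosome. In mammals p300 and CBP can place it, SIRT6 is one of the deacetylases that remove it, and it is found at promoters, at enhancers and on newly assembled chromatin. The 3′ end of a gene is where the transcript is cleaved and polyadenylated. It is usually poor in promoter-type histone acetylation, although enhancers can lie there as in any other sequence. MuSCs are the quiescent, Pax7-positive stem cells beneath the basal lamina of muscle fibres, held there by Notch signalling, adhesion to laminin and collagen, and forkhead factors.

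The sequence under the members was read from the GRCm38 (mm10) genome, in the 300 bp around each peak centre. The letters CAGCTG, a palindromic E-box that myogenic bHLH factors can bind, stood in 19.7% of member windows (602 of 3053, 95% Wilson interval 18.3 to 21.2), beside 17.0% of all other autosomal peaks, 17.6% of later-intron peaks, 21.4% of coding-exon peaks and 17.8% of intergenic peaks 10 to 100 kb from a TSS. The windows printed next show this motif in capitals, with 11 bases on either side, beyond the ends of host genes known for MuSC identity, Notch signalling, early response or the sarcomere. They are written 5′ to 3′ on the strand of the host gene, with the build's coordinates.
Sdc4 (chr2:164423016-164423043, minus strand): gcctgttagcaCAGCTGcaggaaacagt
Notch3 (chr17:32118695-32118722, minus strand): gtactgagcgaCAGCTGtgctgagaacc
Numb (chr12:83791945-83791972, minus strand): ggaagcgggagCAGCTGgcacagcagaa
Maml1 (chr11:50252644-50252671, minus strand): cgctgacccacCAGCTGagagtccgacc
Maml2 (chr9:13711251-13711278, plus strand): atccacaccacCAGCTGctgaccaagcc
Btg2 (chr1:134073330-134073357, minus strand): ctctgtatggtCAGCTGtttgggcatga
Ier2 (chr8:84658410-84658437, minus strand): ctgtgtagctcCAGCTGacatggaattc
Socs3 (chr11:117965449-117965476, minus strand): cccacgagacaCAGCTGtgttcctgcgt
Acta1 (chr8:123889384-123889411, minus strand): tgtaagccaaaCAGCTGacgtcttaaag

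The first base of the motif stood 1215 bp beyond the gene end at Sdc4, 2109 bp at Notch3, 2073 bp at Numb, 2974 bp at Maml1, 1874 bp at Maml2, 1824 bp at Btg2, 2905 bp at Ier2, 614 bp at Socs3 and 2369 bp at Acta1. Over the 66 members of the gene lists described below, 14 windows (21.2%, 13.1 to 32.5) held the motif. Among those not printed was a window 1993 bp beyond the end of the endothelial marker gene Pecam1. A match is a description of the letters only.

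Of the other motifs, searched on both strands, the GC box was rarer in members than in all other autosomal peaks, and the rest were about as frequent. The AP-1 letters TGANTCA were in 8.88% of member windows and 8.88% of all other autosomal peak windows. TEAD (GGAATG) was in 15.4% and 16.0%, MEF2 in 4.39% and 4.76%, RUNX (TGTGGT) in 21.8% and 20.9%, and the CTCF core in 2.52% and 2.06%. Over the 66 members of the gene lists the AP-1 letters stood in 2 windows (3.03%, 0.835 to 10.4). The GC box GGGCGG stood in 6.16% of members (5.36 to 7.07) and in 8.18% of all other autosomal peaks (8.01 to 8.35), with 16.0% within 3 kb of a TSS and 3.46% in later introns. CpG content lay between these classes as well. Members had a median GC content of 47.7%, beside 48.3% within 3 kb of a TSS and 45.0% in later introns, and 4.91% of members reached a CpG observed/expected ratio of 0.6, beside 18.8% of peaks within 3 kb of a TSS and 1.14% of later-intron peaks.

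The polyadenylation signal AATAAA was read on the strand of the host in members with 1 host gene. It stood in 13.5% of the 2784 member windows on the host strand and in 13.1% on the opposite strand. In the 450 of these members that cross the gene end it stood in 21.3% on the host strand (96 windows, 17.8 to 25.4) and in 12.7% on the opposite strand (9.91 to 16.1). Members crossing an end thus held the signal more often in the direction of transcription. They were picked for crossing an annotated end, where transcripts are polyadenylated, so the difference says nothing about H3K56ac. The members that lay downstream only held it about equally on both strands, at 13.4% and 13.8%.

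Members were divided between the transcript and the sequence beyond it. Of the 3053, 918 (30.1%) touched a 3′ UTR only, 1512 (49.5%) the downstream 3 kb only and 623 (20.4%) both. Across the end of a host gene ran 550 members (18.0%), and 1490 (48.8%) lay wholly beyond the end of every host. Measured to the outermost end of the host gene, the midpoint had its median 723 bp beyond the end and its quartiles at -1116 and 2257 bp, where a negative distance lies before the end. The 0.5 kb step with the most pairs of peak and host was the one from 2 to 2.5 kb beyond the end (302 pairs), and the steps on either side of the end held 235 and 247. The midpoints were not gathered at the cleavage site. The drop after 3 kb is set by the rule.

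**Figure D1:**
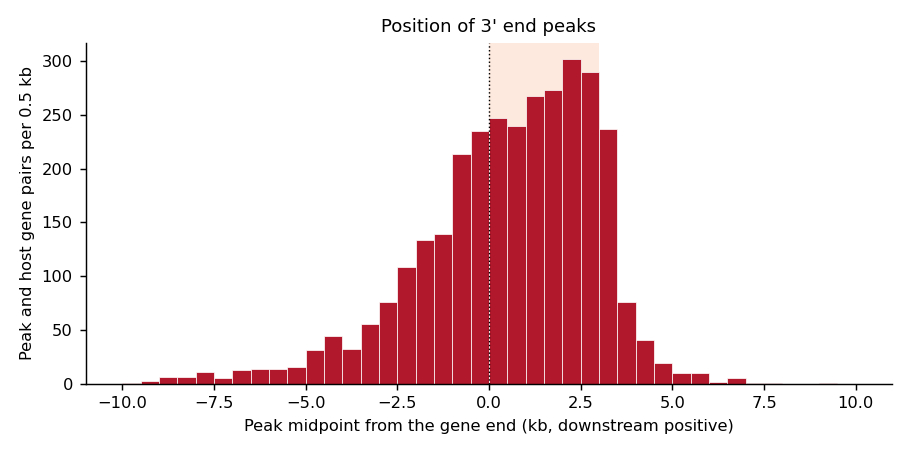
Number of pairs of 3′ end peak and host gene in steps of 0.5 kb (vertical axis) by the distance of the peak midpoint from the gene end in kb (horizontal axis, downstream positive), with the 3 kb downstream zone shaded. The highest bar is 302 pairs, from 2 to 2.5 kb beyond the end, against 235 and 247 beside the end itself; midpoints over 10 kb from the end are not drawn.

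Not every member lies near the outermost end of its gene, because short transcripts that stop inside a gene also have a 3′ UTR. There were 308 members (10.1%) that ended more than 3 kb before every host's outermost end, and 59 (1.93%) that ended more than 50 kb before it. With 3′ UTRs counted only in the last 3 kb of the gene, 2735 members were left. That setting was chosen after the data were seen.

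The distance to the nearest TSS of any gene had a median of 7958 bp with quartiles of 4823 and 15027 bp, and 29 members lay over 100 kb from one. The nearest TSS belonged to a host in 1695 members (55.5%). In the other 1358 it belonged to another gene, and that gene had a 5′ peak in 1030 of them (75.8%). Of all autosomal protein-coding genes 69.3% had a 5′ peak, while the nearest TSS can be of any gene type. At the 3 kb limit of the rule, median widths were 891.5 bp in the 250 zone peaks up to 500 bp inside that limit and 839.5 bp in the 256 members up to 500 bp beyond it. On either side of it, a peak beyond Tlx3 lay 3000 bp from a TSS and was left out, and a peak at P2rx1 lay 3004 bp away and was kept.

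Members were 909 bp wide at the median, with quartiles of 622 and 1761 bp, and ranged from 172 to 26693 bp. Peaks in later introns had a median of 834 bp, intergenic peaks 882 bp, coding-exon peaks 1213.5 bp, and peaks within 3 kb of a TSS 1494.5 bp. Widths of 5 kb or more were reached by 149 members (4.88%), beside 2.94% of later-intron peaks and 11.1% of peaks near a TSS. Another peak stood within 1 kb of 60.6% of members (58.9 to 62.3) and of 65.0% of later-intron peaks (64.2 to 65.7). Joining peaks less than 1 kb apart gave 1892 members with a median of 1351.5 bp.

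Taken over all genes, peaks covered 3′ end zones less densely than the rest of protein-coding genes. Outside 3 kb of every TSS, 6.21% of the 3′ end zone sequence lay under a peak, beside 8.71% of the rest of protein-coding genes and 3.30% of sequence outside all genes and zones. The figure was 6.10% for 3′ UTRs and 6.32% for the downstream 3 kb. For genes with a 5′ peak the zones were covered to 8.04% and the rest of the genes to 10.9%. For genes without a 5′ peak the direction was reversed, with 1.64% for the zones and 0.939% for the rest. The coverage of both parts of a gene was thus higher where the start site was marked.

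The profile in steps of 1 kb around gene ends showed a shallow dip near the end of genes with a 5′ peak and a low rise before the end of genes without one. In the 12009 eligible genes with a 5′ peak, coverage was 10.9% at 18 to 17 kb before the end, 7.42% at 4 to 3 kb before it, 7.98% in the first kb after it and 9.22% at 3 to 4 kb after it. In the 5656 of these that are at least 30 kb long, the lowest step was the first kb after the end, at 6.00%. In the 5713 genes without a 5′ peak coverage was 1.18% at 12 to 11 kb before the end, 2.78% at 2 to 1 kb before it and 2.19% in the first kb after it. It was 2.50% at 19 to 20 kb after the end. An eligible gene is an autosomal protein-coding gene with at least 1 bp of its 3′ end zone over 3 kb from every TSS.

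**Figure D2:**
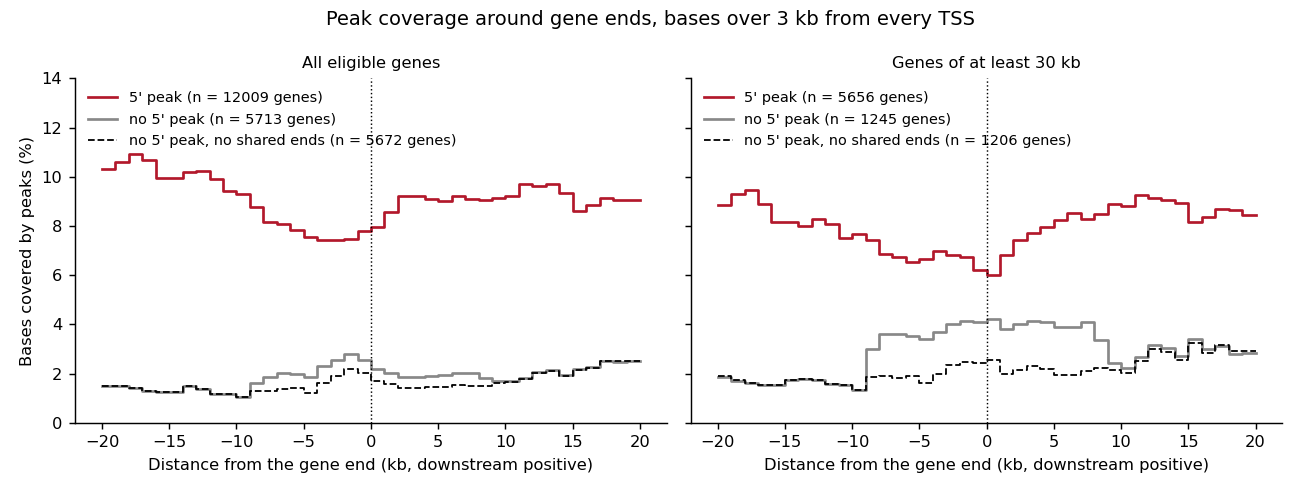
Share of bases under a peak (percent, vertical axis) in steps of 1 kb from 20 kb before to 20 kb after the gene end (horizontal axis), counting only bases over 3 kb from every TSS, for genes with a 5′ peak (red), without one (grey), and without one after leaving out genes at shared ends (dashed); all eligible genes left, genes of at least 30 kb right. Red stays above grey throughout and dips near the end, to 6.00% in the first kb after the end of long genes, where grey is 4.21% and the dashed line 2.53%.

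The grey line for long genes rests partly on the clustered protocadherin genes, which share their last exons. One member, 5608 bp wide, lay at the common end of the gamma-protocadherin cluster and had 23 hosts, of which 4 had a 5′ peak. No other member had more than 3. Leaving out the 47 eligible genes within 10 kb of an end shared by at least 4 genes, a choice made after the data were seen, took the coverage of long genes without a 5′ peak in the first kb after the end from 4.21% to 2.53%. Over all genes without a 5′ peak it took the coverage at 2 to 1 kb before the end from 2.78% to 2.19%. That is still above the 1.18% at 12 to 11 kb before the end. It is below the 2.52% at 19 to 20 kb after the end, so the remaining rise is not particular to the gene end.

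Hosts carried a peak at their 5′ end more often than other genes. A gene counted as marked when a peak lay within 3 kb of any of its annotated TSSs, and since every member is farther than that from every TSS, a member cannot be the 5′ mark itself. A TSS inside the gene counts too, so a 5′ peak can lie far from the outermost 5′ end, and in a short gene it can reach the 3′ end. Of all 17722 eligible genes 67.8% were marked. Of the 2318 hosts 2070 were (89.3%, 88.0 to 90.5), and of the 15404 eligible genes that are no hosts 9939 were (64.5%, 63.8 to 65.3), a difference of 24.8 percentage points. In a logistic regression over all eligible genes with gene length and eligible zone length as covariates, the odds of a 5′ peak were 4.32 times higher in hosts (95% interval 3.75 to 4.97, two-sided Wald p = 1.88e-93, n = 17722 genes). Genes are not replicates of a condition, and neighbouring genes share peaks, so the interval covers counting error only. With the standard error clustered on blocks of 1 Mb it was 3.48 to 5.36. With the mark counted only within 3 kb of the outermost 5′ end of the gene, 85.8% of hosts and 61.7% of the others were marked.

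The size of that difference moved with how many peaks lay around the gene. The 100 kb on each side of the gene, outside 3 kb around it, were covered by peaks to a median of 15.9% for hosts, 10.4% for genes with a peak in the body only and 6.19% for genes with neither. With this coverage in the regression the odds ratio was 1.90 in place of 4.32 (1.64 to 2.22, Wald p = 8.74e-17, n = 17722 genes, standard error not clustered). Of 4 equal classes of genes by this coverage, the class with the least covered flanks had a 5′ peak in 83.7% of hosts and 17.4% of genes with neither kind of peak, and the class with the most covered flanks in 93.6% and 85.9%. Hosts were above genes with neither kind of peak in all 4 classes. In the middle classes they were below genes with a body peak only, at 81.8% (77.7 to 85.3) against 91.7% (90.0 to 93.1) and at 88.0% (85.4 to 90.1) against 94.5% (93.1 to 95.6). The part of the flanking coverage in the result was not tested beyond this.

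Hosts were not marked more often than genes with a peak elsewhere in the gene. The 4166 eligible genes with a peak in the gene body, more than 3 kb from every TSS, and none in their 3′ end zone were marked in 92.4% (91.6 to 93.2), against 89.3% of hosts. The odds ratio of hosts against these genes was 0.959 (0.802 to 1.15, p = 0.646, n = 2318 hosts and n = 4166 others) with both lengths as covariates, and with the standard error clustered on blocks of 1 Mb the interval was 0.753 to 1.22. The odds ratio was 0.580 (0.481 to 0.701, Wald p = 1.51e-08, n = 2318 and n = 4166) with the flanking coverage added and 0.685 (Wald p = 2.19e-05) with no covariates. Neither of these fits had a clustered standard error. Genes with neither kind of peak were marked in 54.2% (53.3 to 55.1). Hosts are not a class without body peaks. A body peak was also present in 1120 of the 2070 hosts with a 5′ peak and in 79 of the 248 without one. The contrast therefore pools hosts with and without a body peak.

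Hosts of every length class were marked in more than 4 of 5 cases. Hosts under 10 kb were marked in 84.9% (433 of 510), those of 10 to 30 kb in 90.1%, of 30 to 100 kb in 91.0%, of 100 to 300 kb in 90.0% and of over 300 kb in 92.9% (79 of 85, 85.4 to 96.7). Genes with a body peak only stood at 85.0%, 91.7%, 93.3%, 93.6% and 85.9% in the same classes, and genes with neither at 40.2%, 66.4%, 67.8%, 50.0% and 40.5%. Hosts and genes with a body peak had overlapping 95% intervals in all 5 length classes, and hosts lay above genes with neither kind of peak in each.

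**Figure D3:**
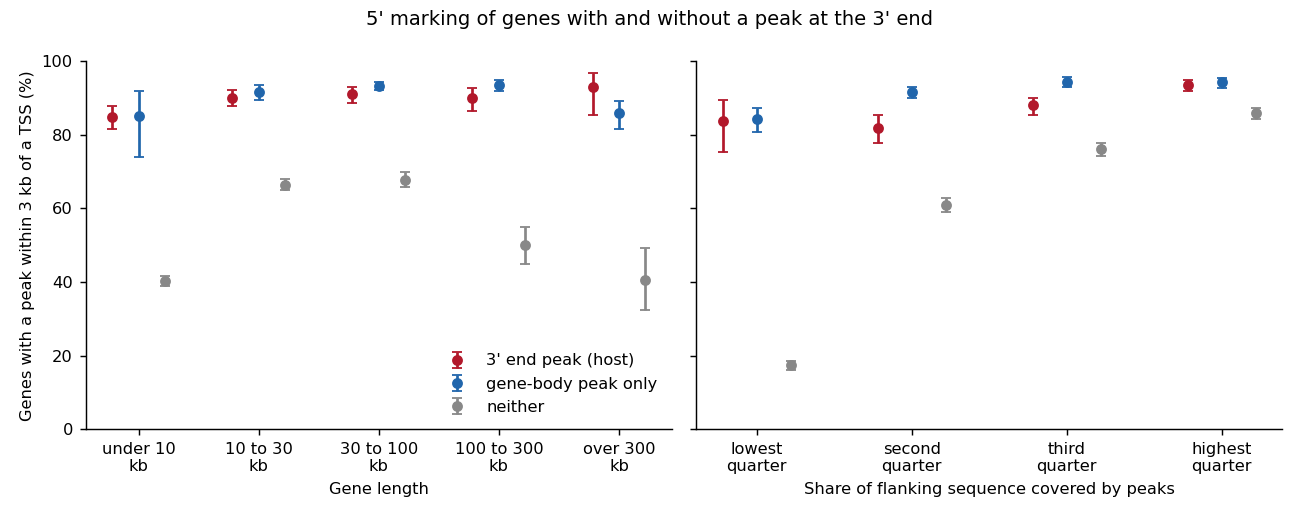
Share of eligible genes with a peak within 3 kb of a TSS (percent, vertical axis; bars are 95% Wilson intervals, counting error only) by gene length (left) and by 4 equal classes of the coverage of the flanking 100 kb (right), for hosts of a 3′ end peak (red), genes with a gene-body peak only (blue) and genes with neither (grey). By length red runs from 84.9% to 92.9% with bars overlapping blue, by flanking coverage it lies below blue in the middle classes (81.8% against 91.7%, 88.0% against 94.5%), and grey runs from 17.4% to 85.9% by flanking coverage.

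The shares of marked hosts were alike by position of the member. Marking was 89.8% for hosts with members in the 3′ UTR only, 89.5% for those with downstream members only and 88.6% for those with both, and the 95% intervals overlapped. In the regression the positions differed more. With only members in a 3′ UTR counted, the odds ratio against all other genes with an eligible zone was 2.78 (2.31 to 3.34), and with only downstream members outside 3′ UTRs it was 5.20 (4.31 to 6.27). Against genes with a body peak only these settings gave 0.649 (0.523 to 0.805) and 1.17 (0.947 to 1.45). The genes compared with hosts also change between these settings. Of hosts with 1 member 87.4% were marked (85.7 to 89.0), and of the 220 with at least 3 members 96.8% (93.6 to 98.5). Hosts whose widest member reached 5 kb were marked in 83.1% (148 of 178), and in 92.9% (145 of 156) without the genes at shared ends, which are mostly those of the gamma-protocadherin member. Both hosts were marked in 210 of the 250 members shared by 2 genes of opposite strands (84.0%), 1 host in 37 and none in 3.

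The widest 5′ peak was usually wider than the widest 3′ end peak of the same gene. The rule bears on this, since a broad peak that reaches within 3 kb of a TSS counts as a 5′ peak and cannot be a member. In the 2070 hosts with a 5′ peak, the widest 5′ peak had a median of 3876.5 bp (quartiles 2460 and 6065 bp) and the widest member one of 1095.5 bp (696 and 2202.5 bp), and the 5′ peak was the wider in 1748 (84.4%). Widest 5′ peaks had a median of 4012.5 bp in genes with a body peak only and 3122 bp in genes with neither. Among the 9182 genes with at least 10 kb of body over 3 kb from every TSS, 1002 had a peak at the 5′ end, in the middle and at the 3′ end, and 282 had one at both ends with none between. A 3′ end peak alone, with neither of the others, was found in 72. More of these genes had no 3′ end member. A 5′ peak and a middle peak were present without one in 3524 (38.4%), a 5′ peak alone in 2416 (26.3%) and none of the 3 in 1527 (16.6%).

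**Figure D4:**
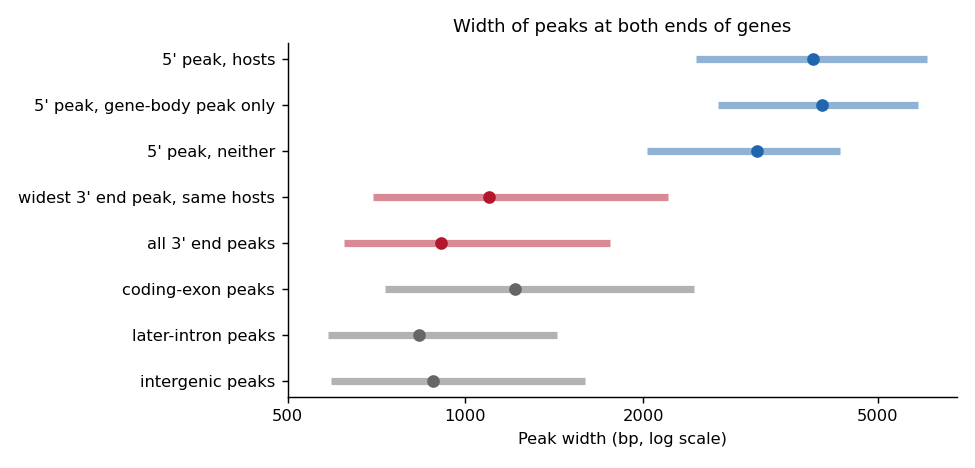
Median (point) and quartiles (bar) of peak width in bp on a log axis, for the widest 5′ peak of each marked gene by class (blue), 3′ end peaks (red) and other peaks over 3 kb from a TSS (grey). The median of the widest 5′ peak in hosts is 3876.5 bp and that of the widest 3′ end peak in the same hosts 1095.5 bp; all 3′ end peaks, at 909 bp, lie between later-intron and coding-exon peaks.

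Marker lists were read against 13.1% of eligible genes that are hosts and 69.3% of autosomal protein-coding genes that have a 5′ peak. The lists were chosen with earlier results of these data known, so they are no independent check of the cell type. All 20 listed MuSC markers had a 5′ peak, among them Pax7, Myf5, Itga7 and Calcr. Hosts were 9 of the 18 eligible ones (50.0%, 29.0 to 71.0). Of these 9, Cd34, Vcam1, Sdc4 and Chrdl2 were in the shorter list planned as cell type markers. Of markers of other cells, 3 of 5 endothelial genes had a 5′ peak (not Cdh5 or Emcn), 1 of 5 haematopoietic genes (not Ptprc, Adgre1, Itgam or Cd3e), 4 of 5 fibro-adipogenic genes (not Ly6a) and both autosomal glial genes. Hosts among these were 1 of 5 endothelial genes (Pecam1, which encodes CD31), 0 of 4 haematopoietic, 1 of 5 fibro-adipogenic (Pdgfra) and 0 of 2 glial genes. The widest 5′ peak of Pecam1 lay inside the gene, 84.9 kb from its outermost TSS. A peak in this list carries no level. The study reports that its sorted cells, when analysed again, were not fully pure, and the part of other cells in the list was not tested.

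The MuSC marker hosts were Cd34, Vcam1, Itgb1, Sdc4, Cxcr4, Chrdl2, Sox8, Notch3 and Heyl, of which the last 2 are described with the Notch pathway. Cd34, the sialomucin used to sort these cells, had 1 member of 551 bp across its end (chr1:194960983-194961533), from 296 bp before it to 254 bp after it. Vcam1, an adhesion receptor of quiescent MuSCs, had 3 members of 737, 704 and 456 bp, the first across the end. Itgb1, the beta-1 integrin subunit, had 4 of 372 to 1097 bp, of which 1 lay in the 3′ UTR and 3 beyond the end. Sdc4, a heparan sulfate proteoglycan, had 2 of 1027 and 1507 bp. Cxcr4, the chemokine receptor, had 1 of 2325 bp that began 975 bp beyond its end. Chrdl2, a secreted BMP antagonist, had 1 of 4664 bp across the end, and Sox8, a transcription factor, 1 of 426 bp beyond it. Each of these 7 had a 5′ peak, from 6296 bp at Cxcr4 to 13657 bp at Sdc4, wider than every member of the same gene. The 5′ peaks of Cxcr4 and Sox8 covered the whole gene and ran 958 and 650 bp beyond its end. At these short genes the 2 ends are therefore not marked by separate peaks, and the Cxcr4 member lay 16 bp from the 5′ peak.

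Notch pathway genes were hosts in 9 of 16 eligible cases (56.2%), and all 18 listed genes had a 5′ peak. By role, the hosts were the ligands Dll1, Dll4 and Jag1, the receptor Notch3, the glycosyltransferase Lfng, the coactivators Maml1 and Maml2, the inhibitor Numb and the target repressor Heyl. Heyl had 3 members, of which the widest, 5146 bp, ran from 4734 bp before the end to 411 bp beyond it. Notch3 had 2 of 707 and 1433 bp, both beyond the end, beside a 5′ peak of 22371 bp. Dll4 had 1 of 2060 bp and Dll1 1 of 1947 bp, both beyond the end. Jag1 had 2 of 802 and 1024 bp, Lfng 1 of 650 bp and Maml1 3 of 376 to 2033 bp. Maml2 is 411 kb long (411432 bp), and its 2 members of 1169 and 625 bp lay 409 and 413 kb from its outermost TSS, where its 5′ peak was 6209 bp wide. Numb shared a member of 9082 bp with Papln, which is transcribed towards it, and here the 3′ end peak was wider than the 5′ peak (4858 bp).

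Quiescence and niche genes were hosts in 9 of 19 eligible cases (47.4%), and of the 20 listed genes Pdgfd lacked a 5′ peak. The forkhead factors Foxo1 and Foxo3 had 4 members each. Those of Foxo1 were 692 to 4158 bp wide, spread from 6496 bp before the end to 5063 bp after it. Foxo3 had 2 members beyond its end (292 and 3537 bp) and 2 in the 3′ UTR of shorter transcripts, 14444 and 68638 bp before it. Fgfr4, a receptor of quiescent MuSCs, had 2 members of 3357 and 8884 bp side by side, and the second (chr13:55169227-55178110) was wider than its 5′ peak of 6145 bp. Fgfr1 had 1 of 874 bp. Cdh2, N-cadherin, had 1 of 970 bp across the end, 220 kb from its outermost TSS. The betaglycan gene Tgfbr3, the dystroglycan gene Dag1, the extracellular glutathione peroxidase gene Gpx3 and the collagen VI gene Col6a1 had members of 360 to 1261 bp. The widest 5′ peak of Gpx3 covered the whole gene and ran 984 bp beyond its end.

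Early response genes are short, so most of their sequence lies within 3 kb of a TSS, and 15 of 20 were eligible. Of these 5 were hosts (33.3%). Egr1 had 2 members of 1749 and 592 bp, Klf6 1 of 2028 bp that began 28 bp beyond the end, Btg2 2 of 418 and 1953 bp, Socs3 2 of 772 and 4578 bp and Ier2 1 of 831 bp. The widest 5′ peaks of Klf6 and Ier2 covered the whole gene and ran 22 and 2352 bp beyond its end. All 20 listed genes had a 5′ peak.

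Sarcomere genes were hosts in 3 of 14 eligible cases (21.4%, 7.57 to 47.6), beside 13.1% of all eligible genes. All 20 listed genes had a 5′ peak. Acta1, skeletal alpha-actin, had 2 members of 1166 and 745 bp beyond its end. The gene is 2983 bp long, and its widest peak within 3 kb of a TSS, 854 bp, lay across its 3′ end, 2342 bp from the outermost TSS, so the 5′ mark counted for Acta1 is itself at the 3′ end. Myl1, a fast myosin light chain, had 1 of 800 bp and a 5′ peak of 621 bp, and Tpm1, a tropomyosin, 1 of 399 bp and a widest 5′ peak of 7700 bp at a TSS inside the gene. In the dystrophin complex list 4 of 18 eligible genes were hosts (22.2%), among them Dag1, Sspn and Nos1. Sspn, sarcospan, had 3 members, the widest of 3320 bp, and its widest 5′ peak lay 10.3 kb inside the gene. The member of Nos1, the neuronal nitric oxide synthase gene, was 936 bp wide and lay before the gene end, and its widest 5′ peak, 969 bp, lay 60.1 kb inside the gene.

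**Figure D5:**
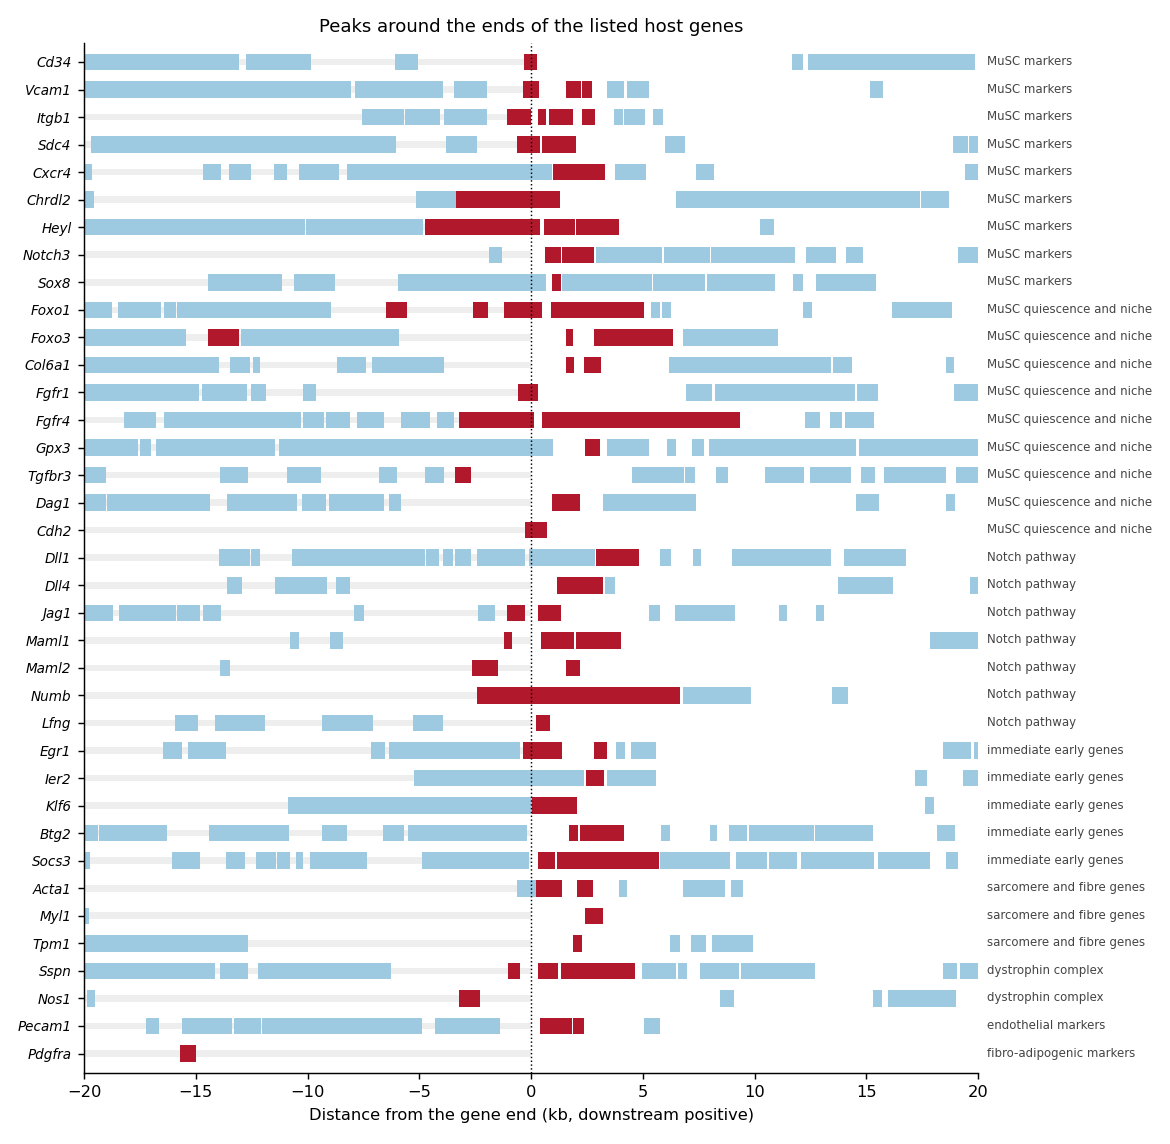
Peaks within 20 kb of the end of the listed host genes, 1 of them not shown, (red, 3′ end members; blue, other peaks; grey, the 20 kb before the end, whatever the length of the gene), by distance from the gene end in kb, downstream to the right. Most red bars are narrow and stand among blue ones; those of Numb (9082 bp) and Fgfr4 (8884 bp) are the widest drawn in full.

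The widest members were broad domains. The widest of all, 26693 bp, lay inside Mdfic, a MyoD family inhibitor relative (chr6:15751708-15778400), in the 3′ UTR of a transcript that ends within the gene, and the widest 5′ peak of that gene was 24919 bp. Zhx2, a zinc finger and homeobox repressor, had a member of 25754 bp that ended 3110 bp before its end. Pxdn, a matrix peroxidase, had one of 22644 bp that began 730 bp beyond its end. A member of 21415 bp covered the facing ends of Cenpp, a kinetochore gene, and Ippk, an inositol phosphate kinase. The others of the 10 widest, of 16268 to 18583 bp, were at Cd200, Foxk1, Fam185a with Fbxl13, Olfml2b, Olfml2a and Atf6. Every host of these 10 members had a 5′ peak, narrower than the member in each.

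Of the genes with many members, some also held a broad one. Fam198b, Klf13, Mdfic, Prpf19 and Spsb1 had 6 each, the most of any host. The 6 of Spsb1 were 517 to 1835 bp wide, and ran from 3702 bp before its end to 3687 bp beyond it. Those of Prpf19, a splicing factor, were 382 to 1959 bp wide and began at 5470 bp before the end. Klf13, a zinc finger factor, had 5 narrow members in the 3′ UTR and 1 of 5182 bp across the end, and Fam198b had 5 narrow ones and 1 of 11347 bp beyond the end.

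Among hosts over 300 kb long, the ones with the widest members differed in where their peaks lay. Rad51b, a DNA repair gene, was marked at both of its ends, with a member of 12865 bp across its end, 515 kb from its outermost TSS, and a 5′ peak of 3249 bp at that TSS. Frmd4a had a member of 9977 bp across its end, but its widest 5′ peak, 9688 bp, lay 537 kb inside the gene. The members of Pde4b (15333 bp), Fggy (11132 bp) and Adamts17 (7084 bp) touched annotated 3′ UTRs and ended 41741, 2483 and 281320 bp before the outermost end. The widest 5′ peaks of these genes also lay inside them, 481 kb from the outermost TSS in Pde4b, 177 kb in Fggy and 68.8 kb in Adamts17. The Adamts17 member lay 25033 bp from the outermost TSS. Among convergent pairs, a member of 8817 bp lay beyond the end of Mpeg1 and wholly inside Dtx4. One of 8360 bp crossed the end of Morn1 and lay beyond that of Ski. These 4 genes each had a 5′ peak.

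The 248 hosts without a 5′ peak (10.7%) had a gene-body peak less often. One was present in 79 of them (31.9%, 26.4 to 37.9), beside 1120 of the 2070 hosts with a 5′ peak (54.1%, 52.0 to 56.2). These shares are not adjusted for gene length. Under 10 kb long were 77 of the 248 (31.0%) and 433 of the 2070. Gene models named Gm or ending in Rik made up 35 of the 248 (14.1%) and 68 of the 2070 (3.29%). For 98 of the 248 (39.5%) the TSS nearest to a member belonged to a gene with a 5′ peak, and 52 shared their member with a marked host. The protocadherin member accounted for 19. The widest members with no marked host were at Iqsec3 (11361 bp, in a UTR 31790 bp or more before the outermost end), Gm17545 (7485 bp), Ptprq (7267 bp), Tprg (6586 bp) and Olfr750 (6277 bp). Iqsec3 is known from neurons and Ptprq, a receptor phosphatase, from the inner ear.

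Across the 19 autosomes members made up 1.99% (chromosome 13) to 4.01% (chromosome 11) of peaks. The share of a chromosome's sequence in 3′ end zones over 3 kb from a TSS ran from 1.76% (chromosome 12) to 3.35% (chromosome 11), and both shares together gave r = 0.43 and rho = 0.39 over the 19 chromosomes, as a description. Per Mb of zone sequence members numbered 33.2 (chromosome 14) to 71.1 (chromosome 11).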

How the data were processed

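The H3K56ac ChIP-seq series of 8 MuSC libraries comes with 1 merged peak list. Per the methods, the authors trimmed reads (Trim Galore), aligned them to mm10 with bowtie keeping single alignments, removed duplicates (Picard), called peaks (MACS2), removed blacklisted regions and merged overlapping peaks (GenomicRanges); which libraries entered the merge is not given in the sources used here. The submitters' notes also name FastQC, SAMtools and deepTools. The deposited score is 0 in every row and the other columns are positions, so the depth behind a peak cannot be read from it, genotypes cannot be compared and only counting error is given. The read totals that the study lists for each library were not used here. Merging can widen peaks. Positions were read against GENCODE M21 and GRCm38.

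Intervals were handled in Python 3.11.15 (numpy 2.4.6, pandas 2.3.3), sequences with pysam 0.24.0, logistic regression with statsmodels 0.14.6 (Wald tests), after tests on simulated data. Shares carry 95% Wilson intervals. 3′ UTRs came from all protein-coding transcripts of protein-coding genes. Named genes were hosts in the gene lists, of the 10 widest members, of the 5 widest without a 5′ peak, of the 5 widest convergent members, the 5 genes with most members and the 5 hosts over 300 kb with the widest member; Tlx3, P2rx1 and the protocadherins were added after their values were seen. Members and lists were chosen with earlier results of these data known. The planned test of Sirt6mKO against Control assumed counts per library and was not run, because the list has none. The alternatives are in the closing section. The values of 1 listed gene are not reported here.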

Additional observations from a re-analysis of the deposited data

How the results depend on the processing

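The higher 5′ marking of hosts held under all 23 alternatives (odds ratio 1.90 to 5.20, main 4.32). Against genes with gene-body peaks (main 0.959) the odds ratio was above 1 with the outermost 5′ end (1.12), protein-coding TSSs (1.00), all autosomal genes (1.04), downstream members outside UTRs (1.17), joined peaks (1.06), 1 host per member (1.01) or no genes at shared ends (1.06, setting added after seeing the data), none past 0.05. It was below 1 and past 0.05 with no covariates (0.685), flanking coverage (0.580), 3′ UTR members only (0.649) or 1 kb downstream (0.785); the other 12 stayed below 1 and did not pass. The cause was not tested. There were 1195 members at over 10 kb from every TSS and 1892 with peaks joined, and the other 6 counts (2039 to 4013) lay within 1.5 times 3053. The median width was 1046.5 bp for peaks of at least 500 bp and 1351.5 bp with peaks joined, by construction. The comparison of Sirt6mKO with Control (edgeR, with its scaling, filter, replicate block and leave-one-out alternatives) was not run, since the list holds no value per library. No paired analysis was possible because the list holds no column for any replicate.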
